A study of Mus musculus with 2 samples.

Results

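The genes of de novo lipogenesis, the pathway that builds fatty acids from acetyl-CoA, were examined in the livers of iFIRKO and control mice. The 10 genes, *Srebf1*, *Slc25a1*, *Acly*, *Acss2*, *Acaca*, *Acacb*, *Fasn*, *Me1*, *Scd1* and *Thrsp*, were taken by symbol from a list of the pathway, out of 53241 distinct symbols measured. All 10 had a row in both libraries. One liver mRNA library was sequenced per genotype, so every difference below compares 1 library with 1 library and has no replicate check.

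The iFIRKO genotype is labelled Adipoq-CreERT2; Insr flox/flox, in which a tamoxifen-inducible Cre under the adiponectin promoter deletes the insulin receptor gene in adipocytes and not in hepatocytes. The control is labelled WT, whereas the methods of the study describe the controls as IR flox/flox without the Cre. All mice, controls included, were males of 7 weeks given 5 daily tamoxifen injections (100 mg/kg), with liver collected 3 days after the final injection. The sources used here do not state whether a library came from 1 mouse or from a pool.

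In lipogenesis, citrate leaves the mitochondrion and is cleaved to cytosolic acetyl-CoA, which is carboxylated to malonyl-CoA and condensed into palmitate with NADPH as the reductant. Insulin raises transcription of these enzymes in the liver through the factor SREBP-1c, and glucose does so through ChREBP. The pathway is among the best known insulin-responsive programs of the hepatocyte.

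Values are normalized read counts as the authors scaled them, returned from the log2 to the linear scale. An estimated 42277010 reads on genes stood behind the control library and 41305567 behind the iFIRKO library. Hepatocyte transcripts dominated both libraries, with *Alb*, the serum albumin gene, at 4167154 normalized reads in control and 3944155 in iFIRKO. Of 8 adipocyte markers, *Adipoq*, *Plin1*, *Lep* and *Retn* were at 1 read pair or fewer in each library, and the 8 together summed to 1292 normalized reads in control and 1256 in iFIRKO. *Cidec*, a lipid droplet gene of that list, was higher in the iFIRKO library, with 17.9 and 108 normalized reads, a log2 fold change of 2.35 (interval 1.57 to 3.81) that rests on 9 and 54 read pairs.

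Of the 10 lipogenic genes, 4 exceeded 1.5-fold upward in iFIRKO (*Me1*, *Scd1*, *Fasn* and *Acaca*), 1 was more than 1.5-fold lower (*Acss2*), and 5 lay within 1.5-fold. The counting intervals of 3 of the 4 higher genes lay wholly above 1.5-fold, and that of *Acaca* did not. Of the 13391 genes that reached 41.8 normalized reads in either library or both, 4.46% were more than 1.5-fold higher and 7.29% more than 1.5-fold lower. Among the 1145 genes at or above 5359 normalized reads, the lowest value of any lipogenic gene, these shares were 4.54% and 4.8%. The median log2 fold change of the 10 genes was 0.49, against 0.007 over all genes tested.

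Summed over the 10 genes, the control library held 273121 normalized reads and the iFIRKO library 414321, which was 0.65% and 0.996% of all reads. The log2 ratio of these sums was 0.60 (95% interval 0.59 to 0.61). *Scd1* alone supplied 49.5% of the sum in control and 53.8% in iFIRKO. Without *Scd1* the log2 ratio of the other 9 genes was 0.47 (interval 0.46 to 0.49), so the increase in the sum was not carried by that gene alone. Unless stated otherwise, intervals are exact Clopper-Pearson intervals on estimated read pairs, which cover counting error only and leave out the variation between mice.

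**Figure D1:**
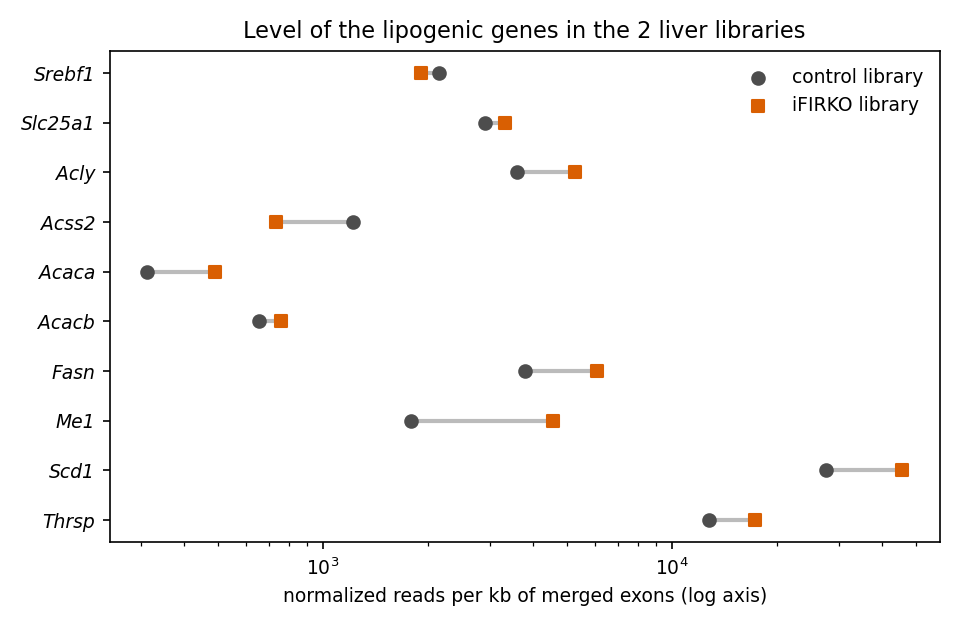
Level of each lipogenic gene in the control library (circle) and the iFIRKO library (square), in normalized reads per kb of merged annotated exons on a log axis. *Scd1* and *Thrsp* were the most abundant per kb in both libraries, and *Srebf1* and *Acss2* were the genes with the lower value in iFIRKO.

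*Srebf1* encodes SREBP-1, the membrane-bound factor whose cleaved form activates the enzymes of the pathway. It lies on the reverse strand of chromosome 11 of GRCm38, from 60199089 to 60222581. It had 12113 normalized reads in control against 10720 in iFIRKO, for a log2 fold change of -0.18 (interval -0.23 to -0.12). The transcript of the factor was thus slightly lower in the library in which most of its enzymes were higher. The deposited row sums all transcripts of the gene, so the SREBP-1a and SREBP-1c forms, which start at different promoters, were not separated.

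Cytosolic acetyl-CoA comes from citrate or from acetate. *Slc25a1* (chromosome 16, 17925223 to 17928219) encodes the carrier that exports citrate from the mitochondrion. It had 6317 normalized reads in control against 7204 in iFIRKO, for a log2 fold change of 0.19 (interval 0.12 to 0.26). *Acly* (chromosome 11, 100476353 to 100528000) encodes ATP citrate lyase, which cleaves that citrate. It had 19041 and 27815 normalized reads, a log2 fold change of 0.55 (interval 0.51 to 0.58) that ended just short of the 1.5-fold limit of 0.585.

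*Acss2* (chromosome 2, 155517948 to 155585724) encodes the cytosolic acetyl-CoA synthetase that activates acetate. It went the other way, from 12384 normalized reads in control to 7448 in iFIRKO, for a log2 fold change of -0.73 (interval -0.79 to -0.67). The gene was therefore 1.66-fold lower, and only 4.59% of all genes tested had a fold change as low or lower. *Gss*, on the opposite strand, shares 395 bases of annotated exon with *Acss2*, and no source says that reads were counted by strand. *Gss* had 2845 normalized reads in control against 3924 in iFIRKO, the opposite direction to *Acss2*.

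The carboxylases make malonyl-CoA, and they are known to serve different ends. *Acaca* (chromosome 11, 84129672 to 84401651) encodes the cytosolic enzyme of fatty acid synthesis, whereas *Acacb* (chromosome 5, 114146535 to 114250761) encodes the enzyme at the mitochondrial membrane, whose malonyl-CoA restrains fatty acid oxidation. *Acaca* had 5359 normalized reads in control against 8350 in iFIRKO, for a log2 fold change of 0.64 (interval 0.57 to 0.71). *Acacb* had 6335 and 7299, a log2 fold change of 0.20 (interval 0.14 to 0.27). Both were higher in the iFIRKO library, and their intervals did not overlap. Of the read pairs on these 2 genes, *Acaca* took 45.8% in control (interval 44.5% to 47.1%) and 53.4% in iFIRKO (interval 52.2% to 54.5%). These shares are not corrected for length, and the merged exons of *Acaca* are the longer (17.1 kb against 9.6 kb). Per kb of merged exons the share of *Acaca* was 32.3% in control and 39.2% in iFIRKO. Which of the 2 was the more abundant in iFIRKO thus depended on the length used.

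*Fasn* (chromosome 11, 120805846 to 120824547) encodes fatty acid synthase, the multienzyme that assembles palmitate. It had 41461 normalized reads in control against 66890 in iFIRKO, for a log2 fold change of 0.69 (interval 0.67 to 0.72). *Me1* (chromosome 9, 86581371 to 86695953) encodes the cytosolic malic enzyme, which supplies NADPH for that assembly. It had 6884 and 17594 normalized reads, a log2 fold change of 1.35 (interval 1.3 to 1.41). At 2.55-fold, *Me1* had the largest change of the 10 genes, at the 99.4th percentile of all genes tested.

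*Scd1* (chromosome 19, 44394455 to 44407879) encodes the stearoyl-CoA desaturase that turns saturated into monounsaturated fatty acids. It had 135298 normalized reads in control against 223079 in iFIRKO, for a log2 fold change of 0.72 (interval 0.71 to 0.74). *Thrsp* (chromosome 7, 97412938 to 97417730) encodes Spot 14, a small lipogenic protein induced by thyroid hormone and carbohydrate. It had 27929 and 37922 normalized reads, a log2 fold change of 0.44 (interval 0.41 to 0.47). *Thrsp* was thus higher in iFIRKO but within 1.5-fold.

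**Figure D2:**
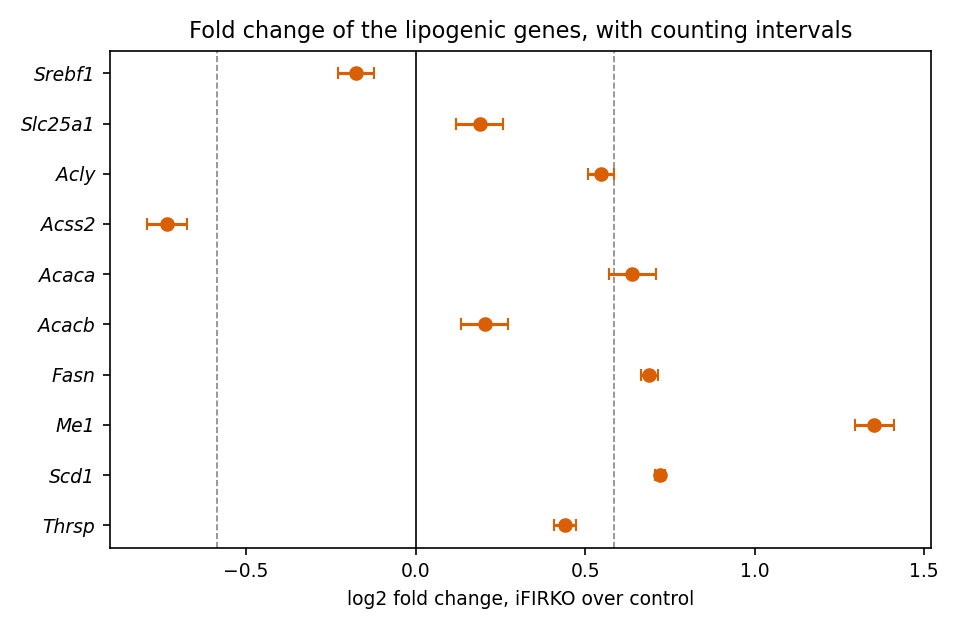
Log2 fold change (iFIRKO over control) of each lipogenic gene, with bars for the 95% counting interval and dashed lines at 1.5-fold in either direction. *Me1* stands at 1.35, 7 genes lie between 0.19 and 0.72, and *Srebf1* (-0.18) and *Acss2* (-0.73) lie below 0.

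The 10 genes did not change by a common factor. In the order of their fold changes, 7 of the 9 neighbouring pairs differed by more than counting error, by normal intervals on the log scale. The exceptions were *Fasn* and *Acaca*, which differed by 0.05 on the log2 scale (interval -0.02 to 0.13), and *Acacb* and *Slc25a1*, which differed by 0.01 (interval -0.08 to 0.11). The gap between *Me1* and *Scd1*, next in order, was 0.63 (interval 0.57 to 0.69). The gap at the other end, between *Srebf1* and *Acss2*, was 0.56 (interval 0.48 to 0.64). The smallest gap counted among the 7, between *Scd1* and *Fasn*, was 0.03 (interval 0.003 to 0.06). The pairs came from sorting these same values and the 9 intervals were not adjusted for that, so the count of 7 only describes these 2 libraries.

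**Figure D3:**
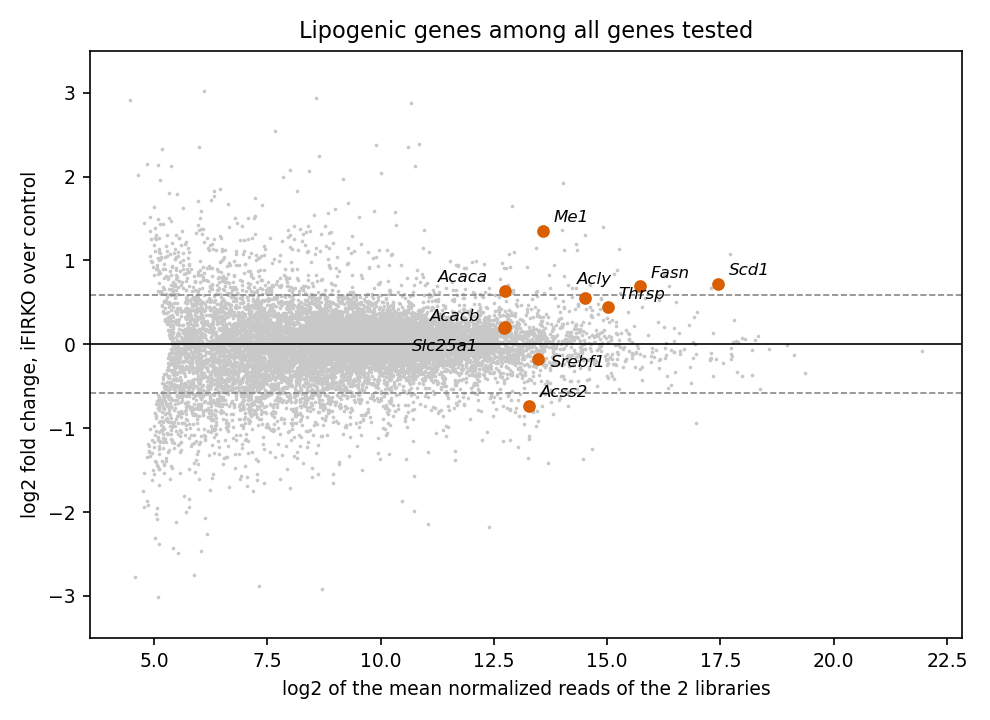
Log2 fold change against the log2 of the mean normalized reads for all 13391 genes tested (grey), with the 10 lipogenic genes in orange and dashed lines at 1.5-fold. The lipogenic genes lie toward the abundant end of the plot, the points of *Acacb* and *Slc25a1* lie close together, and 3 genes lie outside the plotted range of 3.5 in either direction.

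Most of the 10 genes were abundant in both livers. Per kb of merged annotated exons, 7 of the 10 lay above the 90th percentile of the genes tested in the control library. *Scd1* ranked 65th in control and 45th in iFIRKO, with 27657 and 45601 normalized reads per kb. *Thrsp* ranked 137th and 102nd, with 12759 and 17324 normalized reads per kb. *Acaca* was the lowest of the 10 by this length, with 314 and 489 normalized reads per kb. The order below *Scd1* and *Thrsp* depended on the length used. Per kb of the longest coding transcript *Acacb* was the lowest in iFIRKO (831, against 878 for *Acaca*). The merged exons of *Acss2* span 10163 bases and its longest coding transcript 2931 bases, which moved the gene from place 8 to place 4 in control.

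The paralogs of these genes did not follow them as a group, with 1 of the 6 tested more than 1.5-fold higher, 1 lower and a median log2 fold change of -0.12. Against *Scd1*, the closely related *Scd3* was also higher, at 242 normalized reads in control against 396 in iFIRKO, for a log2 fold change of 0.70 (interval 0.38 to 1.05). *Scd2*, the desaturase best known from brain, was lower, at 745 and 480, a log2 fold change of -0.63 (interval -0.87 to -0.39). *Scd4* was at 3 read pairs or fewer in both libraries. The Scd genes are similar in sequence and could share reads in the authors' counting, and *Scd1* took 99.3% of the family's read pairs in control and 99.6% in iFIRKO.

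Among the acetyl-CoA synthetases, the mitochondrial *Acss3* had 2704 normalized reads in control against 3412 in iFIRKO, for a log2 fold change of 0.33 (interval 0.23 to 0.44). With *Acss2* lower and *Acss3* higher, the share of *Acss2* in the read pairs of *Acss1*, *Acss2* and *Acss3* was 82.0% (interval 81.1% to 82.8%) in control and 68.4% (interval 67.2% to 69.7%) in iFIRKO. *Acss1*, also mitochondrial, was below the expression minimum at 21.9 and 22.1 normalized reads.

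Of the mitochondrial malic enzymes, *Me2* had 159 and 126 normalized reads and *Me3* 4.62 and 5.68, so *Me1* took 97.7% of the malic enzyme read pairs in control and 99.3% in iFIRKO. *Srebf2*, which encodes the factor of cholesterol synthesis, had 4119 and 3705 normalized reads, a log2 fold change of -0.15 (interval -0.24 to -0.06). *Srebf1* therefore kept a like share of the SREBP read pairs, 74.6% (interval 73.7% to 75.6%) in control and 74.3% (interval 73.3% to 75.3%) in iFIRKO. *Mid1ip1*, the relative of *Thrsp* that binds acetyl-CoA carboxylase, had 3375 and 3165, a log2 fold change of -0.09 (interval -0.19 to 0.01).

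**Figure D4:**
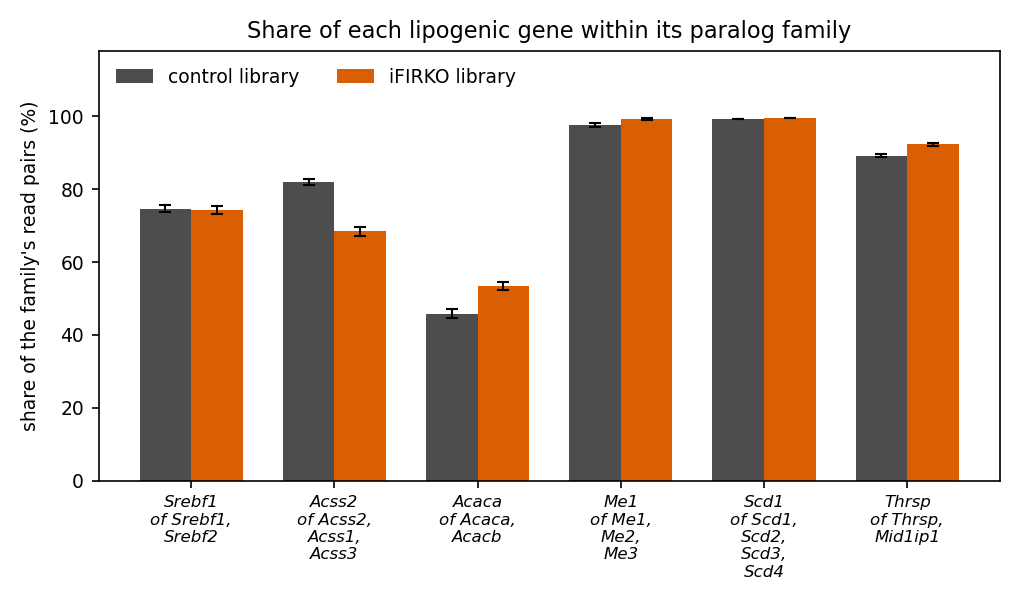
Share of *Srebf1*, *Acss2*, *Acaca*, *Me1*, *Scd1* and *Thrsp* in the estimated read pairs of their paralog families, in percent, with exact 95% binomial intervals. The control library is grey and the iFIRKO library orange, and the shares are not corrected for gene length. The share of *Acss2* was lower in iFIRKO (82.0% against 68.4%), the share of *Acaca* was higher (45.8% against 53.4%), and the intervals for *Srebf1* overlapped.

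The start regions of several lipogenic genes were read to see which known promoter elements they hold. RefSeq windows on GRCm38.p6 were matched for 9 of the 10 genes, in 12 windows, and the 250 bases before each start were searched on both strands. The CCAAT box (CCAAT), bound by NF-Y, a partner of SREBP, was found in 8 of 12 windows, against 33.8% of 32851 windows of all genes. The GC box (CCGCCC), bound by Sp1, was found in 6 of 12, against 32.7%. The E-box (CACGTG), the core of the ChREBP and USF element, was found in the *Slc25a1* window only, against 6.02%. The sterol regulatory element in the form TCACNCCAC was found in 0 of 12, against 1.05%, which says only that these letters are not in these windows. None of these shares was matched for GC content, and some genes count with several windows. The median GC content over all windows was 52.4%. Lipogenic stretches before the gene models, available for some of the genes, ran from 54.4% (*Srebf1*) to 70.6% (*Me1*).

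The sequences of 3 genes are shown to set 2 genes that were higher in iFIRKO beside the gene that was more than 1.5-fold lower. Each is read 5′ to 3′ on the strand of its gene and stops before the first base of the GENCODE gene model, with CCAAT and GC boxes in capitals, in either orientation. They are *Fasn* at chr11:120824548-120824797 and *Me1* at chr9:86695954-86696164, both on the reverse strand, and *Acss2* at chr2:155517793-155517947 on the forward strand. The *Fasn* stretch holds 3 CCAAT boxes, a pair of them overlapping on opposite strands, and 0 GC boxes. The *Me1* stretch holds 0 CCAAT boxes and 2 GC boxes, and the *Acss2* stretch 0 and 3. The stretches differ in length, with 250 bases for *Fasn*, 211 for *Me1* and 155 for *Acss2*, so these counts are not on equal terms. A further GC box of *Me1*, 42 bases before its start, is cut by the end of its stretch. That of *Acss2*, 37 bases before its start, lies beyond its stretch. The CCAAT matches of *Acss2* and *Me1* lie outside these stretches, for *Acss2* within its gene model and for *Me1* in another of its windows.
Fasn: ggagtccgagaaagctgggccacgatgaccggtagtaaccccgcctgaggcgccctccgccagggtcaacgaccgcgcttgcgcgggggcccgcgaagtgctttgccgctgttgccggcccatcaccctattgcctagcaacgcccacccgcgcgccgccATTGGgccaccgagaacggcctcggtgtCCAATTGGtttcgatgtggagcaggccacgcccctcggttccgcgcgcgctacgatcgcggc
Me1: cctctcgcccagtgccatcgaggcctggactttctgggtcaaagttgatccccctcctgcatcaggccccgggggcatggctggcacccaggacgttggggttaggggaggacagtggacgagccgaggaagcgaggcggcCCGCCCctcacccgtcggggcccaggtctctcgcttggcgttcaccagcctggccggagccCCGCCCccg
Acss2: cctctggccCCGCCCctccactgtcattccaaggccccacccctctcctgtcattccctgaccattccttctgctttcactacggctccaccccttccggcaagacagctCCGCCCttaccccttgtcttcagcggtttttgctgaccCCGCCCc

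Genes around the pathway were grouped by role. The machinery that moves and cleaves the SREBPs differed little, with none of 10 genes past 1.5-fold and a median log2 fold change of 0.04. Within it the anchors that hold the SREBP complex in the endoplasmic reticulum moved apart. *Insig1*, itself an SREBP target, had 14607 normalized reads in control against 10544 in iFIRKO, for a log2 fold change of -0.47 (interval -0.52 to -0.42). *Insig2*, whose liver transcript is known to fall under insulin, had 20689 and 24880, a log2 fold change of 0.27 (interval 0.23 to 0.30). *Pgrmc1*, a heme-binding membrane protein reported to bind the complex, was the most abundant of the list at 43850 and 47567.

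Of 16 regulators of lipogenic transcription, 1 was more than 1.5-fold higher, none was lower, and the median was -0.04. The gene past the limit was *Pparg*, the nuclear receptor of adipocyte differentiation, with 358 normalized reads in control against 677 in iFIRKO, for a log2 fold change of 0.91 (interval 0.65 to 1.19). *Mlxipl*, which encodes ChREBP, had 21448 and 15805, a log2 fold change of -0.44 (interval -0.48 to -0.40). *Rxra*, the shared partner of the nuclear receptors, had 14902 and 14396. The transcripts of both leading lipogenic factors, *Srebf1* and *Mlxipl*, were thus lower in the iFIRKO library, each within 1.5-fold. Of all genes tested, 26.3% had a fold change as low as that of *Srebf1* or lower, and 11.2% for *Mlxipl*.

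Targets of the 2 SREBP factors were set side by side. Of 16 genes of cholesterol synthesis and uptake known as SREBP-2 targets, 8 were more than 1.5-fold lower, none was higher, and the median was -0.58, against the 0.49 of the lipogenic genes. *Idi1* had 12087 and 6243 normalized reads, a log2 fold change of -0.95. *Lss*, *Pmvk* and *Fdft1*, other enzymes of the route, had log2 fold changes of -0.89, -0.85 and -0.81. *Hmgcs1*, which makes the precursor HMG-CoA, was within 1.5-fold at -0.42. The value of *Acss2*, -0.73, was below every other lipogenic gene and lay within the range of this list (-0.95 to 0.13). That range is wide: it also holds *Srebf1*, at -0.18, and the median of all genes tested, 0.007.

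Of 8 genes known as ChREBP targets outside the lipogenic list, 4 were more than 1.5-fold higher, 3 were lower, and the median was 0.71. Among the higher genes were enzymes of glycolysis, fructose use and glycerol 3-phosphate supply. *Pklr*, liver pyruvate kinase, had 6984 normalized reads in control against 26413 in iFIRKO, for a log2 fold change of 1.92 (interval 1.87 to 1.97). *Gpd1* and *Khk* had log2 fold changes of 1.19 and 1.13. The lower genes were *Rgs16*, a regulator of G protein signalling, at -1.09, and the arrestin relatives *Txnip* and *Arrdc4* at -0.85 and -0.77. *G6pc*, the glucose-releasing phosphatase, was within 1.5-fold at 0.35.

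NADPH for fatty acid synthesis also comes from the pentose phosphate route and from isocitrate. *G6pdx*, the entry enzyme of that route, was lower, at 341 normalized reads in control against 176 in iFIRKO, for a log2 fold change of -0.94 (interval -1.35 to -0.58). *Tkt* had 6738 and 9720, a log2 fold change of 0.53, and *Idh1* had 18921 and 18537, a log2 fold change of -0.03. None of the 6 genes listed for these routes was more than 1.5-fold higher, whereas *Me1* was at 1.35. Among 17 tested genes of pyruvate and citrate metabolism, which include the kinases that inhibit pyruvate dehydrogenase, *Pcx*, pyruvate carboxylase, was the gene past 1.5-fold, at 19252 and 31344 normalized reads, a log2 fold change of 0.70 (interval 0.67 to 0.74). *Mdh1*, the cytosolic malate dehydrogenase, differed little at 25708 and 24903, and the median of the list was 0.16.

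Malonyl-CoA is removed by *Mlycd*, its decarboxylase, and the carboxylases are phosphorylated by AMPK. *Mlycd* had 3114 normalized reads in control against 3095 in iFIRKO, and *Stk11*, the kinase that activates AMPK, had 2944 and 3011. Of these 11 genes only *Trib3*, a pseudokinase that promotes degradation of acetyl-CoA carboxylase, was past 1.5-fold, at 178 and 78.5 normalized reads, a log2 fold change of -1.14 (interval -1.77 to -0.63). The median of the list was 0.02.

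Further along the pathway the enzymes split. *Elovl6*, which extends palmitate, had 4969 normalized reads in control against 10702 in iFIRKO, for a log2 fold change of 1.11 (interval 1.04 to 1.18). *Elovl3* had 305 and 1606, a log2 fold change of 2.38 (interval 2.15 to 2.66). *Elovl5*, which acts on polyunsaturated fatty acids, was within 1.5-fold at 0.42, and *Fads1*, the delta-5 desaturase, was at -0.47. In all, 2 of 12 tested elongation and desaturation genes were more than 1.5-fold higher and none was lower, with a median of 0.02.

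Of 13 genes that activate fatty acids or esterify them to triglyceride, 2 were more than 1.5-fold higher, none was lower, and the median was 0.18. *Gpam*, the first acyltransferase of glycerolipid synthesis and an SREBP-1 target, had 4124 and 6577 normalized reads, a log2 fold change of 0.67 (interval 0.59 to 0.75). *Mogat1*, a monoacylglycerol acyltransferase, had only 6 estimated read pairs in control against 63 in iFIRKO, for a log2 fold change of 3.02 (interval 2.21 to 4.91). *Acsl1* and *Acsl5*, the most abundant of the list, were at 0.29 and 0.08.

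**Figure D5:**
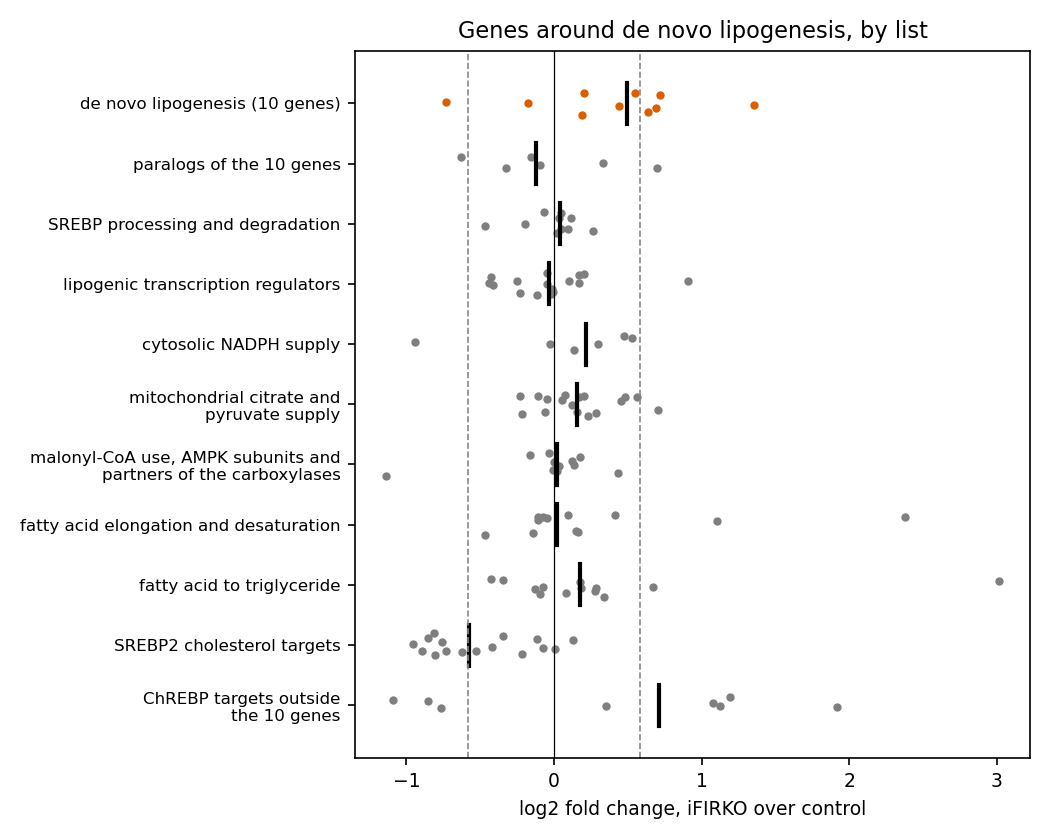
Log2 fold change (iFIRKO over control) of each tested gene in the lipogenic list (orange) and in 10 lists around it (grey), with a black bar at each list's median and dashed lines at 1.5-fold. The lipogenic median was 0.49, the SREBP-2 target median -0.58, and the ChREBP targets lay on both sides of 0.

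Other cell types also differed between the libraries. Of 8 Kupffer cell and macrophage markers, 5 were more than 1.5-fold lower, with a range of log2 fold changes from -0.99 to -0.29 and a sum of 30092 normalized reads in control and 19564 in iFIRKO (*Cd5l* -0.79, *Clec4f* -0.62). All 7 sinusoidal endothelial markers were below 0 (range -0.79 to -0.23), and 3 were more than 1.5-fold lower, with sums of 11246 and 7953 (*Stab2* -0.23, *Fcgr2b* -0.69). All 6 tested erythroid markers were higher, with sums of 13473 and 27016 (*Hbb-bs* 0.97, *Hba-a1* 0.96), and the similar globin copies could share reads. The 7 stellate markers (median 0.17, *Dcn* 0.06, *Col3a1* 0.17) and the 5 tested of 6 cholangiocyte markers (median -0.23, *Spp1* -0.19, *Sox9* -0.23) all lay within 1.5-fold. Of the hepatocyte markers, 7 of 8 lay within 1.5-fold (*Alb* -0.08, *Serpina1c* 0.10), *Apoa1* was lower at -0.94, and the median was -0.06. In whole liver, fewer cells of a type and less RNA per cell cannot be told apart. The part of these cell types in the lipogenic values was not tested. The adipocyte genes *Fabp4* and *Lipe*, which other liver cells also express, had 470 and 804 normalized reads in control and 469 and 666 in iFIRKO.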

How the data were processed

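Stranded mRNA libraries (TruSeq) from total liver RNA of 1 control and 1 iFIRKO sample were sequenced by the authors on an Illumina NovaSeq instrument. The deposited values are the log2 of a normalized read count for 53342 rows named by gene symbol, with no value below 0. The submitters' processing notes name mm10. The aligner, counter, annotation and scaling method are not given in the sources used here.

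Values were returned to the linear scale, and of rows with the same symbol the most abundant was kept. The fold change was iFIRKO over control with a pseudocount of 4.18 normalized reads (a CPM of 0.1). Tested genes, meaning those compared with the study's fold of 1.5, reached 41.8 normalized reads (a CPM of 1) in either library or both. With 1 library per group no p-value was computed. The commonest low value was taken as 1 read pair. At this value 45.5% of low values in control and 48.4% in iFIRKO were whole reads within 0.01, so depths and read pairs are estimates. The intervals treat these estimated read pairs as counts, which this share leaves uncertain. No model of the variation between mice was fitted. No fold change was given for genes with 3 or fewer read pairs in a library. Intervals are 95% exact Clopper-Pearson intervals, and differences between fold changes have normal intervals on the log scale. The exact intervals of fold changes leave out the pseudocount. For genes with few read pairs, such as *Mogat1* and *Cidec*, the pseudocount draws the fold change toward 0 within its interval. Positions and exon lengths came from GENCODE M21 on GRCm38, and start regions from RefSeq. The scripts were tested on simulated data.

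The lipogenic genes, the other lists and the thresholds were chosen with earlier results of these data known. Named were all lipogenic genes and paralogs, and of each other list up to 4 genes past 1.5-fold by size and 2 by level. *Insig1*, *Txnip*, *Arrdc4*, *Apoa1*, *Gss* and the adipocyte markers *Adipoq*, *Plin1*, *Cidec*, *Lep* and *Retn* were named after their values were seen. Some genes that the rule selects are not reported here. Alternatives were another pseudocount, the plain ratio, other expression minimums, median-ratio, TMM and trimmed-total scaling, a fold of 2 and summed duplicate symbols. Calculations used scipy 1.17.1, pandas 2.3.3 and numpy 2.4.6 under Python 3.11.15, and figures matplotlib 3.10.9.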

Additional observations from a re-analysis of the deposited data

How the results depend on the processing

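The log2 fold changes of the 10 lipogenic genes stayed within their counting intervals in all 90 recomputed values. The widest range for 1 gene was 0.015, and none changed sign. Many of these values could hardly differ. The other expression minimums cannot move genes this abundant, and these settings and the summed duplicate symbols returned the same values. The scalings shift every gene alike, by at most 0.012 on the log2 scale. The 90 values are therefore a weak check. With a fold of 2 the lipogenic genes past the limit were 1 higher (*Me1*) and 0 lower of the 10. Of all 13391 genes tested, 209 were higher and 267 lower at that fold. The log2 ratio of the summed lipogenic genes was 0.589 when the total was taken without the 20 most abundant genes, where that scaling shifts every gene alike. The counts over all genes depended on the treatment of low genes. Higher and lower genes numbered 371 and 576 with a pseudocount of a CPM of 1, 1957 and 2619 when no minimum was applied, 288 and 440 at a minimum CPM of 5, and 209 and 267 with a fold of 2. Of 153 recomputed medians of the other lists, 2 moved, both without the minimum: the elongation and desaturation list to -0.05 and the adipocyte list to 0.567, where genes near 0 enter. The order of the lipogenic genes by level was recomputed with the longest coding transcript, an alternative chosen after seeing the data; *Scd1* and *Thrsp* kept the first and second place in both libraries. No paired analysis was possible because there was only 1 library for each genotype. The depth limits the low genes most, such as *Mogat1* with 6 read pairs in control.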
